A study of Mus musculus with 4 samples.

Results

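Proteoglycans of the extracellular matrix were examined in cultured primary myoblasts of wild type (WT) mice and of mice without functional Tet2 (Tet2 KO). The members were the 10 genes Acan, Vcan, Bgn, Dcn, Lum, Fmod, Prelp, Ogn, Aspn and Hspg2, taken by name from the deposited expression table, and each of them had 1 of the 24445 rows of that table. There were 2 RNA libraries in each group, all from C57BL/6 animals. Satellite cells, the stem cells of muscle, had been sorted from hindlimb muscle by CD34 and integrin alpha 7, without CD45, CD11b, CD31 and Sca1, and were grown for 3 days or longer on 0.5 mg/ml collagen until they were myoblasts that contain MyoD. The Tet2 KO animals lacked exon 3 of Tet2 in every cell, as a constitutive deletion, so the cells lacked it before they were cultured. Per the study's methods, adult male mice were the default.

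Most matrix proteoglycans are secreted core proteins that carry sulfated sugar chains, and some proteins grouped with them by family lack such chains. The hyalectans aggrecan (Acan) and versican (Vcan) bind hyaluronan and swell with water, as in cartilage and in the loose matrix around migrating cells. The small leucine-rich proteoglycans (Bgn, Dcn, Aspn, Fmod, Lum, Prelp and Ogn) mostly sit on collagen fibrils, set the width of these fibrils and hold growth factors of the TGF-beta family, while perlecan (Hspg2) is a large heparan sulfate proteoglycan of the basement membrane that wraps each muscle fibre. The comparison asked how the transcripts of this group differ between myoblasts with and without Tet2, which oxidises methylated cytosines of DNA.

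The members went in different directions. Bgn and Dcn were each about doubled in Tet2 KO, with 1.98 and 2.23 times the WT level, whereas Ogn was at 0.397 and Hspg2 at 0.693 times the WT level. Vcan, abundant in both groups, was at 1.30 times the WT level. The other 5 members were below 0.5 FPKM in both groups (FPKM, fragments per kilobase of transcript scaled to sequencing depth, is a level per length, so it can be compared between genes). Each value is the authors' single value for a group, and where both are given together Tet2 KO comes first. It has no standard deviation, no difference between groups could be tested, and how far apart the libraries of a group lay is unknown. In bulk RNA a lower value can come from fewer cells of a type or from less RNA per cell, and these cannot be told apart.

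**Figure D1:**
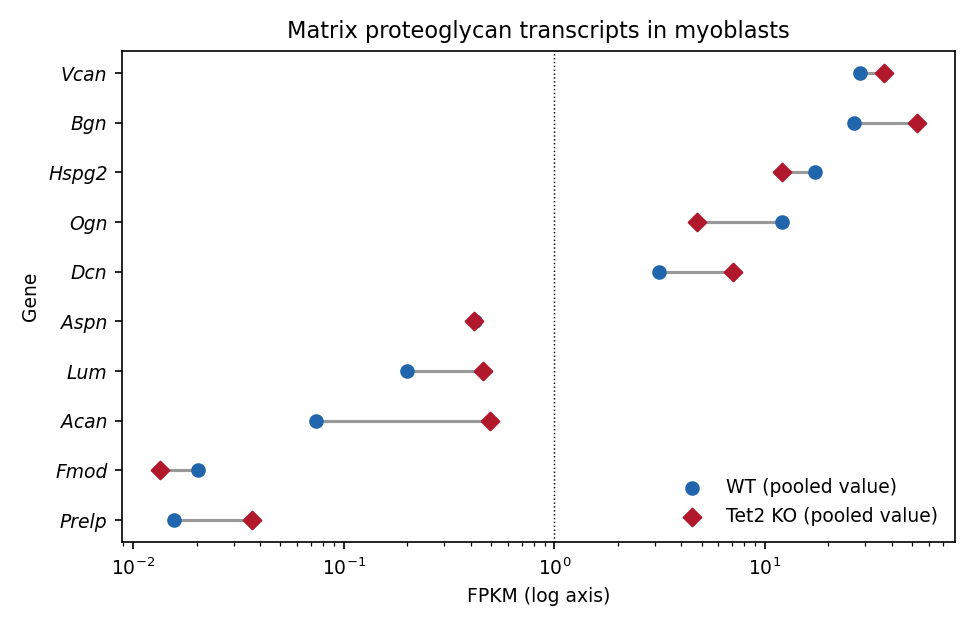
FPKM of the 10 matrix proteoglycan genes (log axis) in WT (blue circles) and Tet2 KO (red diamonds), 1 pooled value per group and no error bars, ordered by the WT level; the dotted line marks 1 FPKM. Bgn and Dcn lie to the right in Tet2 KO, Ogn and Hspg2 to the left, and 5 genes lie below 1 FPKM in both groups.

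Steps in the low values allowed the number of fragments behind each value to be estimated. Across genes with a single annotated transcript, low FPKM values multiplied by transcript length fell on multiples of 0.0176 FPKM kb in both groups, within 0.15 of a whole step for 85.7% of 659 values in Tet2 KO and 87.1% of 783 values in WT. This step was taken as 1 fragment. The values combine scaled libraries, so a step may not be exactly 1 fragment, and the depth of each library is unknown. By this estimate the 5 members with a mean of at least 1 FPKM rested on 279 to 25570 fragments per group. Intervals given below are exact (Clopper-Pearson) 95% intervals of the ratio from these fragments. They cover counting error only, not the spread between libraries or cultures.

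Of the 10 members, 5 had a mean of at least 1 FPKM. Ratios of the groups are given as log2((Tet2 KO + 1) / (WT + 1)), a scale that understates differences of low values. None of the 5 members was past 2-fold higher in Tet2 KO on this scale and 1, Ogn, was past 2-fold lower. Over all 11692 genes with a mean of at least 1 FPKM, 2.08% were past 2-fold higher and 1.21% past 2-fold lower. At 1.5-fold, 2 members (Bgn and Dcn) were higher and 1 (Ogn) was lower, beside 3.72% and 2.89% of all genes. The median log2 ratio of the 5 members was 0.37, against -0.0044 over all genes. With so few members of opposite sign this median changes with single genes, and it became -0.064 without Bgn or without Dcn. No common direction can be read from it.

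**Figure D2:**
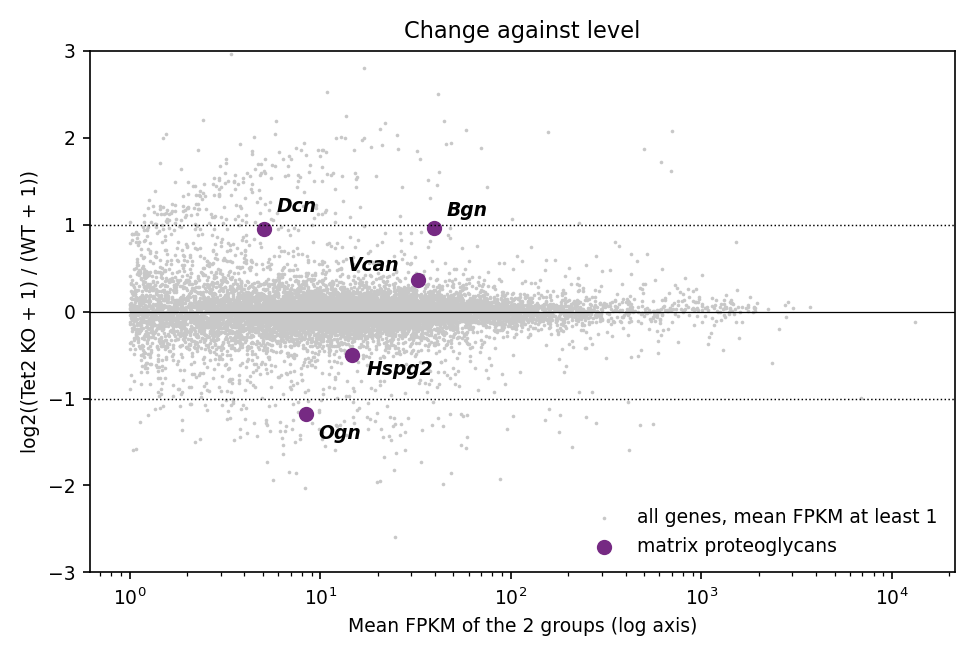
log2((Tet2 KO + 1) / (WT + 1)) against the mean FPKM of the 2 groups (log axis), with each grey point 1 gene with a mean of at least 1 FPKM and the 5 labelled points the proteoglycans that reach this level; dotted lines mark 2-fold, and 11 genes lie beyond the axis limit of 3. Bgn and Dcn lie just inside the upper line, Ogn below the lower line, and Hspg2 and Vcan nearer to 0.

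Bgn encodes biglycan, which carries chondroitin or dermatan sulfate chains, binds collagen and the dystroglycan and sarcoglycan complexes of the muscle membrane, and as a soluble protein can engage Toll-like receptors. It lies on chromosome X, from 70728940 to 70741275 on the plus strand of mm9, and its longest annotated transcript has 8 exons and 2377 bases. Bgn had 52.7 FPKM in Tet2 KO against 26.6 in WT, a log2 ratio of 0.96. In WT it was second to Vcan among the members, and in Tet2 KO it was first. Among the 3372 genes with a mean of 20 to 80 FPKM, 22 (0.652%, Bgn included) had a ratio as high, and the central 95% of these genes ran from -0.48 to 0.36.

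Dcn encodes decorin, a small proteoglycan with 1 chain that limits the width of collagen fibrils and binds TGF-beta and myostatin. The gene lies on chromosome 10, from 96942134 to 96980797. Dcn had 7.04 FPKM in Tet2 KO against 3.15 in WT, a log2 ratio of 0.95 with the pseudocount of 1 and 1.16 without it. The call at 2-fold therefore depends on the pseudocount. By estimate 615 and 279 fragments lay behind these values, and the counting interval of the ratio ran from 1.91 to 2.55. Of 4312 genes with a mean of 5 to 20 FPKM, 85 (1.97%) had a ratio as high as that of Dcn. The mean of Dcn, 5.09 FPKM, lay at the lower edge of this band. Past 2-fold higher were 4.76% of the 2818 genes with a mean of 1 to 5 FPKM, beside 1.86% at 5 to 20 FPKM. The ratio of Dcn was therefore less unusual beside genes of the lower band. Biglycan and decorin transcripts kept nearly the same proportion to each other, with 7.49 times as much Bgn as Dcn in Tet2 KO and 8.45 times as much in WT, on the FPKM scale.

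Ogn encodes osteoglycin (mimecan), a small leucine-rich protein of connective tissue and bone that is also secreted by muscle cells. Ogn had 4.77 FPKM in Tet2 KO against 12.0 in WT, a log2 ratio of -1.17. By estimate 628 and 1596 fragments were counted, and the interval of the ratio ran from 0.358 to 0.432. Of 4312 genes with a mean of 5 to 20 FPKM, 42 (0.974%) were as low. Ogn and Dcn exchanged places: WT had 3.81 times as much Ogn as Dcn, while Tet2 KO had 1.48 times as much Dcn as Ogn.

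Ogn has 3 neighbours of its own family, Ecm2, Aspn and Omd, which lie in this order before it on the plus strand of chromosome 13. All of them lie inside the span of Cenpp, a centromere protein gene on the minus strand, and share 0 exon bases with it. The annotated Ogn gene runs from 49703440 to 49719869 in mm9, with 7 exons. The deposited table gives Ogn, Aspn, Omd and Ecm2 the whole merged region, from 49559428 to 49748100, as their position. The library kit does not mark the strand, so reads from Cenpp introns cannot be told from Ogn by strand; the effect of this on the value was not tested. The neighbours were nearer to equal in the groups. Aspn, which encodes asporin, a decorin relative with a run of aspartate residues, had 0.416 FPKM in Tet2 KO against 0.421 in WT. Omd had 0.403 and 0.572 FPKM, Ecm2 had 0.425 and 0.451 FPKM, and Cenpp had 13.1 and 14.2 FPKM. The counting interval of the Aspn ratio ran from 0.65 to 1.48.

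Hspg2 encodes perlecan, a scaffold of the basement membrane that binds laminin, nidogen and dystroglycan and anchors acetylcholinesterase at the neuromuscular junction. It lies on chromosome 4, from 137024718 to 137126545 on the plus strand, with 97 exons in its longest annotated transcript of 14187 bases. Hspg2 had 12.0 FPKM in Tet2 KO against 17.4 in WT, a log2 ratio of -0.50. Of 4312 genes at 5 to 20 FPKM, 148 (3.43%) were as low. The other basement membrane proteoglycans had smaller log2 ratios of the same sign. Agrn (agrin, which clusters acetylcholine receptors) had 14.6 and 17.2 FPKM, a ratio of -0.22. Col18a1 (the collagen that releases endostatin) had 35.5 and 48.9 FPKM, a ratio of -0.45.

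Vcan encodes versican, whose splice forms differ in the number of chondroitin sulfate chains and are not separated in a value per gene. It lies on the minus strand of chromosome 13, from 89794915 to 89882117. Vcan had 36.9 FPKM in Tet2 KO against 28.3 in WT, a log2 ratio of 0.37. Of 3372 genes at 20 to 80 FPKM, 83 (2.46%) were as high. Next to it lies Hapln1, which encodes a link protein that fixes hyalectans to hyaluronan; it was listed at 0 in Tet2 KO and at 0.00351 FPKM in WT. The other link protein genes, Hapln2, Hapln3 and Hapln4, were below 0.15 FPKM in both groups as well.

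**Figure D3:**
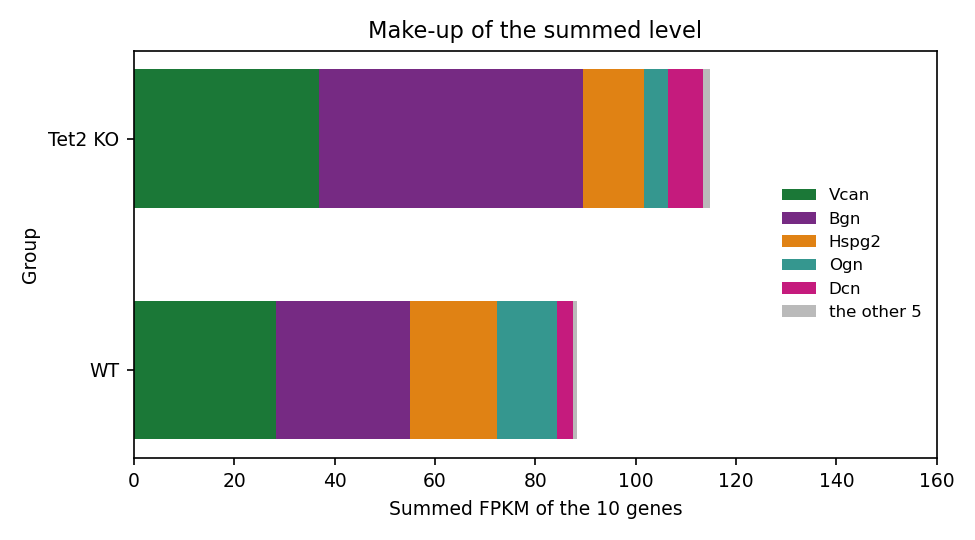
Summed FPKM of the 10 genes in WT and Tet2 KO, 1 bar per group starting at 0, with segments for the 5 genes above 1 FPKM and 1 segment for the other 5. The sum was 88.2 in WT and 115 in Tet2 KO, with a larger Bgn segment and a smaller Ogn segment in Tet2 KO.

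Together the 10 members summed to 115 FPKM in Tet2 KO against 88.2 in WT. Bgn made up 45.9% of this sum in Tet2 KO and 30.2% in WT, while the share of Vcan was 32.1% in both. Hspg2 went from 19.7% in WT to 10.5% in Tet2 KO, Ogn from 13.6% to 4.15%, and Dcn from 3.57% to 6.13%. The 5 low members held 1.24% in Tet2 KO and 0.827% in WT. In the order of levels, Bgn and Vcan led in both groups followed by Hspg2. In WT the level of Bgn was 0.939 times that of Vcan. Without values per library no neighbours in this order can be said to differ beyond their spread.

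The 5 low members were the cartilage hyalectan Acan, the fibril-binding Lum and Fmod, Prelp, which bridges heparan sulfate and collagen, and Aspn. Acan had 0.496 FPKM in Tet2 KO against 0.0742 in WT, 6.68 times as much, and its position is chromosome 7 from 86198369 to 86259985. By estimate 201 and 30 fragments were counted over its 7355 bases, with an interval of the ratio from 4.55 to 10.2, so the difference exceeded counting error although both levels were low. On the log2(FPKM + 1) scale the Acan ratio was 0.48, and without a pseudocount it was 2.74. Hapln3, the next gene after Acan, had 0.0579 FPKM in Tet2 KO against 0.0139 in WT. Its fragments were not estimated, so no difference can be read from such low values. Lum (lumican, best known from the cornea) had 0.456 and 0.199 FPKM, about 48 and 21 fragments, with an interval from 1.34 to 4.02. Prelp had 0.0367 and 0.0156 FPKM, about 7 and 3 fragments, with an interval from 0.533 to 14. Fmod had 0.0134 and 0.0202 FPKM, about 2 and 3 fragments, with an interval from 0.0557 to 5.82. No difference of Prelp or Fmod was detectable at this depth.

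**Figure D4:**
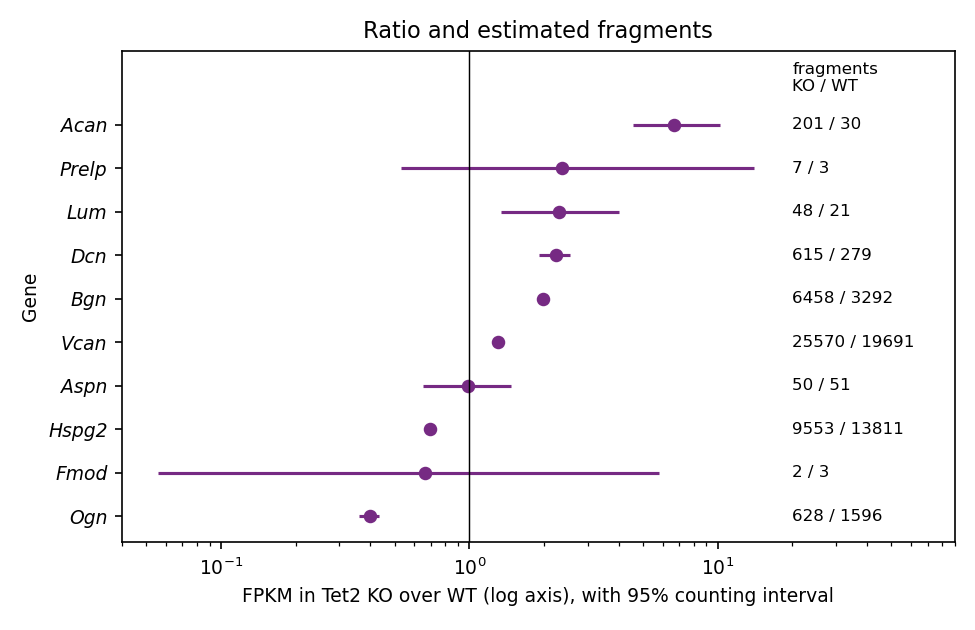
FPKM in Tet2 KO over WT (log axis) for the 10 genes, with 95% counting intervals from the estimated fragments printed at the right as Tet2 KO / WT; the intervals do not include the spread between libraries, and for Bgn, Vcan and Hspg2 they are narrower than the point. The intervals of Acan, Lum, Dcn, Bgn and Vcan lie above 1, those of Ogn and Hspg2 below 1, and those of Prelp, Aspn and Fmod include 1.

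Several members lie beside relatives that were barely detected. Dcn, Lum, Kera and Epyc lie in a row on chromosome 10, with gaps of 47.4, 34.5 and 30.4 kb in the GENCODE annotation. Kera (keratocan) had 0 FPKM in Tet2 KO against 0.0206 in WT, and Epyc (epiphycan) had 0 and 0.0118 FPKM, so Dcn was the one gene of this row above 0.5 FPKM. Optc, Prelp and Fmod lie on chromosome 1, with gaps of 2.3 and 115.8 kb in the same annotation. All 3 were below 0.1 FPKM in both groups.

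Promoters of 8 members were found in RefSeq sequences of the build GRCm38.p6; Dcn and Lum had no entry. Those of the 4 matched members above 1 FPKM are shown because Tet2 acts on methylated cytosines, most of which are in CpG dinucleotides, and because these genes differ in that content. Each run is the 250 bases before the transcription start, 5′ to 3′ on the strand of the gene, with each CpG in capitals. The windows are chr13:49607765-49608014 (plus strand) for Ogn, chrX:73483351-73483600 (plus) for Bgn, chr4:137468553-137468802 (plus) for Hspg2 and chr13:89742513-89742762 (minus) for Vcan; these coordinates differ from the mm9 positions given above.
Ogn: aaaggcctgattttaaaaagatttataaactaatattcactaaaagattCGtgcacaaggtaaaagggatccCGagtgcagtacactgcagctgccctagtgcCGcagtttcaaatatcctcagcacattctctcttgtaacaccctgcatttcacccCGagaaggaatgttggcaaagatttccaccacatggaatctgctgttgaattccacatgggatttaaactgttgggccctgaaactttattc
Bgn: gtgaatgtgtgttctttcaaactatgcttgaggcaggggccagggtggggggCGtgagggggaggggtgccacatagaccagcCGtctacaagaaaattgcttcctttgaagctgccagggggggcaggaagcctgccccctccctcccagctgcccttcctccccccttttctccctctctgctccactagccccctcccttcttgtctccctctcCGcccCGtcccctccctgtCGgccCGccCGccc
Hspg2: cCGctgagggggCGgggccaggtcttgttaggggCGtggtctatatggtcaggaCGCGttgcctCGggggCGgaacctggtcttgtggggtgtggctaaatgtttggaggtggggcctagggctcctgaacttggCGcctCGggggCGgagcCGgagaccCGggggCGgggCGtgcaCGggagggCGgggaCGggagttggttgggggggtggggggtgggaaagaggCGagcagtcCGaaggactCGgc
Vcan: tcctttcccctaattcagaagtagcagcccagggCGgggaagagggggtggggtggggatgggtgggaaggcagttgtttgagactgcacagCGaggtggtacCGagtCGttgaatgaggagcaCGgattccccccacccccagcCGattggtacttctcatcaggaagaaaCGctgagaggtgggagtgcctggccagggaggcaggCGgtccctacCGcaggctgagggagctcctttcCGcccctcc

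The window of Ogn held 4 CpGs and had a GC content of 42%, and that of Bgn held 7 CpGs at 64.4%. Vcan had 10 CpGs at 62.4% and Hspg2 had 20 at 70%. Across all 32851 promoter windows of this length the median was 6 CpGs, with quartiles of 2 and 16. Among the low members, Acan had 26 CpGs, Prelp 5, Aspn 2 and Fmod 2. Methylation was not measured in these files, so the CpG count is a feature of the sequence only. The study reports that regions with more methylation in Tet2 KO myoblasts were enriched in introns and between genes. The windows shown need not be where Tet2 acts. The E-box CAGCTG, a form that MyoD binds and that reads the same on both strands, was found once in the Ogn window, where it began 162 bases before the start, and once each in the Bgn window at 102 and the Acan window at 179 bases. It was in 13% of all windows. The general E-box CANNTG, of which CAGCTG is a case, was in 66.2% of all windows and in 0 copies in the Hspg2 and Prelp windows. A match of letters is not evidence of binding.

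Other genes of proteoglycan biology were counted from lists that were put together with the members. Of 20 other secreted proteoglycan genes, 5 had a mean of at least 1 FPKM. Of these, 2 were past 2-fold higher and none past 2-fold lower, beside 2.08% and 1.21% of all genes. Their median log2 ratio was 0.16. The sign of this median rests on single genes: it was -0.034 without Esm1, without Srgn or with a mean of at least 5 FPKM, -0.026 with no filter, and 0.80 without Agrn or without Col18a1. Neither of the 2 genes past 2-fold higher belongs to the leucine-rich family. Srgn encodes serglycin, the proteoglycan of secretory granules in blood cells, and had 19.9 FPKM in Tet2 KO against 6.12 in WT, a ratio of 1.56. Esm1 encodes endocan, a small dermatan sulfate proteoglycan of endothelium, and had 3.62 and 0.694 FPKM, a ratio of 1.45; its WT value was below the limit of 1 FPKM. The most abundant of these was Col18a1. Tsku (tsukushi), the one further leucine-rich gene above 1 FPKM, had 7.53 and 6.66 FPKM.

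The enzymes that build the sugar chains were counted in the same way. Of 48 genes 39 were above the limit of 1 FPKM, and 0 were past 2-fold in either direction, beside 2.08% of all genes higher and 1.21% lower. Among 39 genes a count of 0 is near these shares. The median was -0.0092, against -0.0044 over all genes, with a range from -0.54 to 0.54. Of 10 genes for the linker and for the supply of sugar and sulfate, 9 were slightly below 0, with a median of -0.053. Ugdh, which makes the UDP-glucuronic acid that these chains need, was the most abundant and had 168 FPKM in Tet2 KO against 143 in WT, a ratio of 0.24. Genes for chondroitin and dermatan sulfate were evenly divided, 7 above and 7 below 0. The highest ratio of them was that of Chsy1, which extends chondroitin, with 35.3 and 23.9 FPKM and a ratio of 0.54; it was singled out after its value was seen. Of 11 genes for heparan sulfate 7 were above 0, from -0.23 to 0.21.

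Hyaluronan synthesis and link protein genes had 4 of 9 members above 1 FPKM and 0 past 2-fold, beside 2.08% of all genes higher and 1.21% lower. Their median was 0.15. Hmmr, a hyaluronan-binding protein of the mitotic spindle, was the most abundant with 40.8 and 42.9 FPKM. Of 14 genes that cleave core proteins or chains, or block that cleavage, 11 were above 1 FPKM and 0 were past 2-fold, beside the same shares. Their median was -0.021. Without the pseudocount 1 of them, Hpse, was past 2-fold higher, with no share over all genes computed for that setting. The most abundant, Timp3, an inhibitor of the ADAMTS proteases, had 44.9 FPKM in Tet2 KO against 54.6 in WT. The widest ratio of this list was that of Hpse (heparanase, which cuts heparan sulfate chains), named after its value was seen, with 3.41 and 1.38 FPKM and a ratio of 0.89.

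Proteins known to bind the members were listed as 31 genes, of which 29 were above 1 FPKM, with a median of 0.027. Of these, 1 was past 2-fold higher and 1 past 2-fold lower, beside 2.08% and 1.21% of all genes. Without the pseudocount 2 were past 2-fold higher and 2 lower, with Itga2 and Nid2 added. No share over all genes was computed without the pseudocount. Fgf2, a heparan-binding mitogen of myoblasts that perlecan can store, had 3.44 FPKM in Tet2 KO against 0.940 in WT, a ratio of 1.19. Its WT value was below the limit of 1 FPKM, as was that of Itga2, with 1.63 and 0.675 FPKM. The means of both reached the limit only through Tet2 KO. Tgfb3, a ligand that decorin and biglycan can bind, had 8.31 and 21.6 FPKM, a ratio of -1.28. Itgb1, the shared beta subunit of the collagen and laminin receptors, was the most abundant with 215 and 227 FPKM. Among the fibrillar collagens that decorin and biglycan coat, 4 of 5 were above 0, with a median of 0.17. Col1a1, Col1a2 and Col3a1 were also on the list of fibroblast markers given below, so these counts are not separate observations. Among 11 basement membrane genes 4 were above 0 and 7 below. The nidogens, which link laminin to collagen IV and perlecan and were singled out after their values were seen, went opposite ways: Nid1 had 18.7 and 9.83 FPKM, and Nid2 had 2.98 and 6.94 FPKM.

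**Figure D5:**
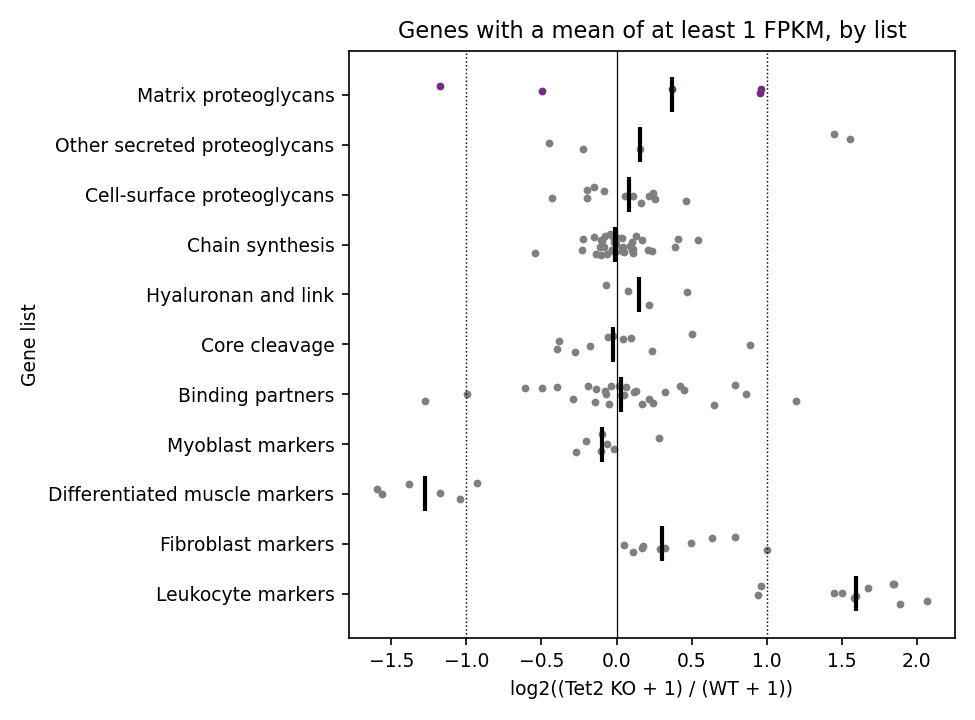
log2((Tet2 KO + 1) / (WT + 1)) of every gene with a mean of at least 1 FPKM in the proteoglycan lists and in 4 marker lists, with 1 point per gene, vertical bars at the list medians and dotted lines at 2-fold; the vertical scatter within a row has no meaning. The chain synthesis genes lie between -0.54 and 0.54, the leukocyte markers between 0.94 and 2.07, and the differentiated muscle markers between -1.60 and -0.93.

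Markers of cell types also differed between the groups. Tet2 itself had 5.79 FPKM in Tet2 KO against 6.64 in WT, a value per gene that does not show the deleted exon and so checks no label. Of 7 myoblast markers 6 were slightly lower in Tet2 KO, with a sum of 1117 FPKM against 1226 in WT and a median log2 ratio of -0.099; the most abundant, Des (desmin), had 372 and 449 FPKM. The 6 markers of differentiated muscle were all lower, 5 of them past 2-fold beside 1.21% of all genes. They summed to 714 FPKM in Tet2 KO against 1833 in WT, and 6 were past 2-fold without the pseudocount. For this and the other marker counts without the pseudocount, no share over all genes was computed. The most abundant of them was Acta1 (skeletal muscle actin), with 207 and 629 FPKM. All 11 leukocyte markers were higher, 9 of them past 2-fold beside 2.08% of all genes. They summed to 407 FPKM against 103 in WT, and none was at 0. Adgre1 had 3.67 and 0.712 FPKM, so its mean reached 1 FPKM only through Tet2 KO. Without the pseudocount all 11 were past 2-fold, and the most abundant, Lyz2 (lysozyme), had 253 and 59.5 FPKM. Of 16 fibroblast markers 10 were above 1 FPKM, and all 10 were higher, with log2 ratios from 0.050 to 1.00. Only Mfap5 was past 2-fold, beside 2.08% of all genes. The 16 markers summed to 554 FPKM against 502 in WT. Most of this sum lay in Ly6a, with 288 and 278 FPKM, and Col3a1, with 171 and 152 FPKM. Of the 6 markers below 1 FPKM, Dpt, Tcf21, Clec3b and Col15a1 were lower in Tet2 KO, Pi16 was higher and Dpp4 was nearly equal. Dpt, Tcf21, Clec3b and Dpp4 were below 0.1 FPKM in both groups, and none of the 16 was at 0. Among tendon and cartilage markers 3 of 10 were above 1 FPKM, and Tnmd, the defining gene of tendon cells, was listed at 0 in both groups. Endothelial, pericyte or smooth muscle, and Schwann cell markers had 1 of 7, 4 of 7 and 1 of 4 genes above 1 FPKM. None of them was past 2-fold, beside 2.08% of all genes higher and 1.21% lower. Without the pseudocount the pericyte marker Abcc9, with 0.770 and 1.67 FPKM, was past 2-fold lower. The part that any of these cell types had in the values of the proteoglycans was not tested. Of the genes behind the sort, Cd34 had 6.74 and 3.03 FPKM, Ptprc (CD45) had 5.67 and 1.36 FPKM, Itgam (CD11b) had 10.1 and 2.09 FPKM and Pecam1 (CD31) had 1.48 and 1.63 FPKM. Itga7 had 190 and 199 FPKM, and Ly6a, which encodes Sca1, had 288 FPKM in Tet2 KO against 278 in WT. The sort had removed cells with Sca1 on their surface. It read surface protein before culture, while all these values are RNA after 3 days or longer of culture, so they cannot be compared directly.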

How the data were processed

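RNA of 4 libraries was prepared from 1 ug of total RNA each with a TruSeq kit. Per the study's methods and the labels, the authors trimmed the reads, aligned pairs to mm9 with TopHat2 2.0.13 and computed FPKM with Cuffdiff 2.2.1; the gene annotation is not given in the sources used here. The deposited table holds 1 FPKM value per gene and group. How the libraries were combined is not stated. Its further columns hold the authors' own comparison (a log2 ratio, a test statistic, p and q values and a test status) and were not used. No value per library was at hand, so no test was run.

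Ratios were computed with a pseudocount of 1, for genes with a mean of at least 1 FPKM. The table counts starts from 0, so 1 was added. Gene structure and transcript lengths came from GENCODE vM1, of the same build. For the estimate of fragments, genes with 1 transcript of at least 1500 bases were used, with 220 bases (Tet2 KO) or 200 bases (WT) taken off each length as fitted; the annotation may differ from that of the authors, and members with several transcripts used the longest. The ratio and the calls were run on simulated data with planted changes and an assumed noise. The estimate of the step was run on simulated whole counts of a single library. That simulation cannot show that a step in the deposited values, which combine libraries, is 1 fragment. The members and the lists were chosen with earlier results of these data known. Named were all members, the genes of each other proteoglycan list past 2-fold (at most 6), the most abundant gene of each of these lists and chromosomal neighbours. The genes behind the sort, the few marker genes named, Agrn, Tsku, Itga2, the nidogens and those marked in the text were chosen after their values were seen. Emr1 and Mymk were looked up under the names Adgre1 and Tmem8c. The scripts ran in Python 3.11.15 with pandas 2.3.3, scipy 1.17.1, numpy 2.4.6 and, for plots, matplotlib 3.10.9.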

Additional observations from a re-analysis of the deposited data

How the results depend on the processing

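The count of 0 members past 2-fold higher became 1 (Dcn) with a pseudocount of 0.1, with no pseudocount and with FPKM rescaled to TPM, and 2 at 1.5-fold. It stayed at 0 with no filter, with a mean of at least 5 FPKM and with median centring. The count of 1 member past 2-fold lower (Ogn) was 1 under all 7 alternatives. The median log2 ratio of the members, 0.37, became 0.16 with no filter, 0.23 without Vcan, -0.064 without Bgn or without Dcn, and 0.66 without Ogn or without Hspg2; it stayed within 0.1 under the other pseudocounts and scalings and with a mean of at least 5 FPKM. No single member turned its sign under the pseudocounts and scalings, but ratios of low members widened without a pseudocount, most for Acan, from 0.48 to 2.74. The median of all genes was -0.0044, and -0.00028 as TPM.

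No paired analysis was possible because the table holds 1 pooled value per group, and for that reason leaving out each library was not run either. The restriction to rows with a test status was not run, since that column belongs to the authors' comparison; all 24445 rows carry a single symbol. The estimate of fragments and the counts of the lists without a pseudocount were added after the data were seen. Shares over all genes were computed with the pseudocount of 1 only, so counts without it have no such share beside them. Depth limits Prelp and Fmod most, with 7 fragments or fewer per group.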

Other observations

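Proteoglycans anchored in the cell membrane were more abundant in sum than the secreted ones. Of 14 genes 12 had a mean of at least 1 FPKM, and 0 were past 2-fold, beside 2.08% of all genes higher and 1.21% lower. Among 12 genes a count of 0 is near these shares. The median log2 ratio was 0.081, with a range from -0.43 to 0.46. They summed to 781 FPKM in Tet2 KO against 724 in WT, beside 115 and 88.2 FPKM for the 10 matrix genes. Sdc4 (syndecan-4, a coreceptor of satellite cells) led with 315 FPKM in Tet2 KO against 267 in WT. The others named here were chosen after their values were seen: Cd44, the hyaluronan receptor, had 156 and 139 FPKM, and Gpc1 (glypican-1) had 132 and 146 FPKM. All 4 syndecans were above 33 FPKM in both groups, with log2 ratios from -0.083 to 0.24.

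Some levels stood apart and are given as values. Scx, a transcription factor gene of tendon, had 50.6 FPKM in Tet2 KO against 59.7 in WT, while Tnmd was listed at 0 in both groups and the cartilage collagen genes Col2a1 and Col9a1 were below 0.05 FPKM. The deposited position of Scx runs from 76210943 to 76307699 on chromosome 15. Whether this is a merged region as for Ogn, with reads of another gene in the value, was not tested.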
